A study of Mus musculus with 4 samples.

Results

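Complement is a set of plasma and membrane proteins that recognise, tag and lyse microbes and damaged cells. Recognition by C1q (the classical pathway) or by mannose-binding lectins, collectins and ficolins (the lectin pathway) activates serine proteases that cleave C4 and C2, while the alternative pathway amplifies C3 cleavage through factors B and D and properdin. These routes meet at C3, after which C5 to C9 assemble the membrane attack complex, and plasma and membrane regulators restrain each step. Hepatocytes are the main source of most of the plasma components, whereas C1q comes largely from macrophages and factor D from adipocytes.

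The genes described here are 35 complement components and regulators, taken by symbol from a table of 24493 gene symbols, and all 35 were found in it. They were read as 9 classical, 6 lectin, 4 alternative, 7 terminal and 9 regulatory genes, with C3 placed in the alternative group and C5, named Hc in mouse, in the terminal group. RNA sequencing of total RNA covered 4 untreated cultures of C57BL/6 hepatocyte origin: Bil_2D (n = 2), biliary cells derived from hepatocytes and kept in 2D culture, and Hep_3D (n = 2), hepatocytes kept in 3D culture. Clone 15C7 gave replicate 1 and clone 19H5 gave replicate 2 of each group, so each group rests on 2 clones, and culture format cannot be told apart from cell state. The labels state neither the age of the animals nor how the clones or the biliary cells were made.

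Values are TPM, a unit of relative transcript abundance that corrects for transcript length and sums to 1000000 in each library. The depth of each library is unknown. Genes with at least 1 TPM numbered 11247 to 12266 per library. Of all TPM, 46.6% and 48.4% fell to the 50 most abundant genes of Hep_3D replicates 1 and 2, and 22.4% and 24.8% to those of Bil_2D. The median log2 fold change of the 12336 genes tested was -0.73 on the TPM scale and -0.021 after dividing TPM by size factors from the median of ratios, called here the size-factor scale. Log2 fold changes are Hep_3D minus Bil_2D of log2(TPM + 1), a scale that understates changes of low genes. A gene is said to have risen or fallen where limma gave an adjusted p under 0.05 over all genes tested on the TPM scale. Among the 9 hepatocyte markers with a value, 8 rose and 0 fell, and Hnf4a, the nuclear receptor of hepatocyte identity, had 84.3 TPM as its lowest value. The Bil_2D libraries differed in these markers. Their summed level was 1700 TPM in replicate 1 and 287 TPM in replicate 2, against 51752 and 52056 TPM in Hep_3D. In Bil_2D 8 of the 9 were higher in replicate 1, as were 7344 of the 12336 genes tested. Among these markers, Cps1, Arg1 and Asgr1 were at 0.363 TPM or less in both Bil_2D libraries. Of 10 biliary markers 9 were tested, of which 1 rose and 5 fell, and on the size-factor scale 1 was higher and 3 lower. On that scale 8 hepatocyte markers were higher and 0 lower. Across all genes tested 6.8% rose and 51.9% fell, and on the size-factor scale 11.9% were higher and 9.54% lower. The share of biliary markers that fell on the TPM scale is thus near that of all genes. The keratin Krt19 had 752 and 1615 TPM in Bil_2D and 1.12 and 15.9 TPM in Hep_3D, and Krt7, Tspan8 and Cd24a also fell. On the size-factor scale Krt7 and Tspan8 did not pass (adjusted p = 0.117 and 0.0667 in limma). Spp1, osteopontin, rose from 4176 and 6092 TPM to 13093 and 9284 TPM. The rise of Spp1 did not pass once clone entered the fit as a replicate block (adjusted p = 0.0611 in limma). The biliary genes Epcam, at 0.439 to 2.59 TPM, and Cftr, at 0 to 0.0797 TPM, were low in all 4 libraries. In bulk samples, fewer cells of a type and less RNA per cell cannot be told apart.

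3 promoters are shown because they belong to the 3 most abundant complement genes of Hep_3D that changed and have an entry in RefSeq's promoter table for GRCm38.p6. Each run is the 250 bases before the annotated start, 5′ to 3′ on the gene's strand. Capitals mark matches, on either strand, to 5 motifs: TTGCNNAA for C/EBP, TTCNNNGAA for STAT, CAAAGTNCA for HNF4, and the NF-kappa B and ISRE motifs.
C3, chr17:57228137-57228386, minus strand: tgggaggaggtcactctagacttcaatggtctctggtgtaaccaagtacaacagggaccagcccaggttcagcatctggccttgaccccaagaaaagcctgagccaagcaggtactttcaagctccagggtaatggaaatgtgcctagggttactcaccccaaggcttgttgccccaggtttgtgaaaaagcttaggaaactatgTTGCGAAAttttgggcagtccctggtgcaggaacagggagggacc
Vtn, chr11:78498870-78499119, plus strand: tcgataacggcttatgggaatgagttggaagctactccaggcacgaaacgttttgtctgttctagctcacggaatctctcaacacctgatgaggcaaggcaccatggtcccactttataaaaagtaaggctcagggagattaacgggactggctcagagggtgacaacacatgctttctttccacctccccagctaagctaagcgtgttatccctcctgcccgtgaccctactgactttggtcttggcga
Cfhr2, chr1:139858700-139858949, minus strand: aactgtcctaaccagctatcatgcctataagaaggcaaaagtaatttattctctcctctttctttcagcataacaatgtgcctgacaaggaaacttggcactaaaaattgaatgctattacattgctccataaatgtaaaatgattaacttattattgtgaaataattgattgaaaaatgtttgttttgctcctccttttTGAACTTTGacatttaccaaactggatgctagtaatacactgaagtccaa
The C3 run holds a C/EBP match whose first base is at -45 from the start. The Cfhr2 run holds an HNF4 match at -50, and the Vtn run holds none of the 5 motifs.

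Entries were found for 26 of the 35 genes. The C/EBP letters were present in 4 of these 26 (C1rl, C1s1, C3 and C9), against 9.56% of the 32851 promoters of the same length in the table. The STAT letters were present in 4 (C7, C8a, Colec11 and Masp2), against 7.02%. The HNF4 letters were found in 1, against 1.19% of all, the ISRE letters in 2 (Cd59a and Colec11), against 2.98%, and the NF-kappa B letters in 0, against 0.36%. A match is a description of these letters and not a bound site.

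Most complement genes of the plasma were higher in the hepatocyte cultures, from the initiating proteases C1ra, C1s1 and Masp2 to the terminal components Hc and C9 and the soluble regulators Vtn and Cfhr2. Of the 35 genes, 17 rose, 1 fell, 7 were tested without passing and 10 were under the filter, which asked for 1 TPM or more in 2 or more libraries. Across all genes tested with limma, 6.8% rose and 51.9% fell, and these shares also stand beside the counts of each pathway group below. On the size-factor scale 18 of the 35 were higher and 0 lower, where 11.9% of all genes tested were higher and 9.54% lower. Among the 25 genes tested, the 2 groups did not overlap for 20 that were higher in Hep_3D and 3 that were lower, against 11.1% and 71.9% of all genes tested, and on the size-factor scale for 21 and 2, against 33.6% and 34.7%. The median difference in log2(TPM + 1) over all 35 genes was 1.96, against -0.096 over all genes in the table. The filter was passed only through Hep_3D by 5 genes (Masp2, Mbl1, Hc, C6 and C8b) and only through Bil_2D by 1 (Cd55), for which passing the filter already required a difference between groups.

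**Figure D1:**
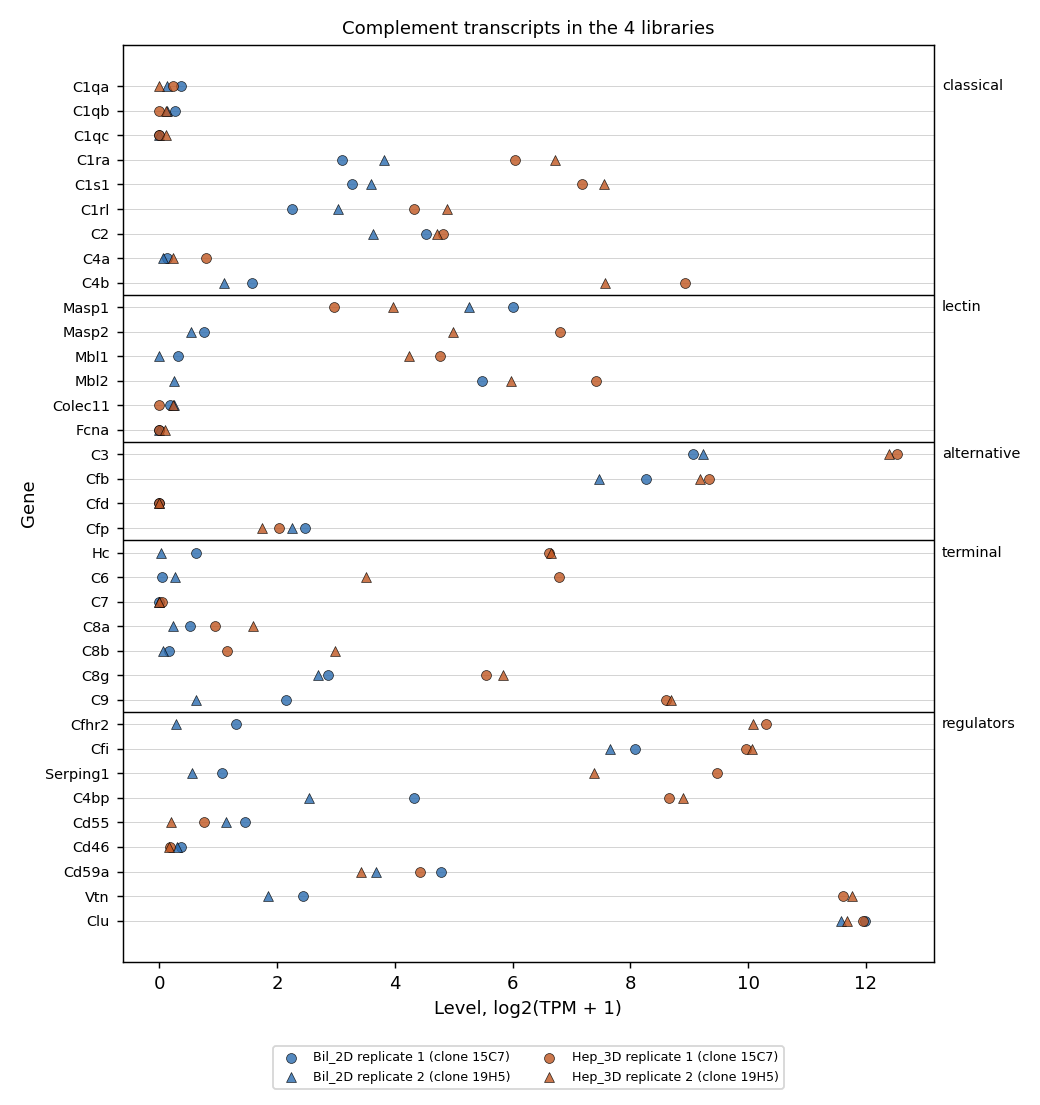
Level of each of the 35 complement genes as log2(TPM + 1), 1 point per library, blue for Bil_2D and orange for Hep_3D, circles for clone 15C7 and triangles for clone 19H5. Vtn lies at 3115 and 3488 TPM in Hep_3D and at 4.39 and 2.57 TPM in Bil_2D, while the 4 points of Clu lie together.

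The summed level of the 35 genes was 5404 and 4144 TPM in the Bil_2D libraries and 18753 and 16785 TPM in those of Hep_3D. In Bil_2D most of this was clusterin (Clu), which held 75.3% and 73.6% of the sum. Hep_3D was led by C3, with 31.6% and 32.1%, followed by Clu and Vtn. Without Clu, the other 34 genes summed to 1334 and 1093 TPM in Bil_2D and to 14792 and 13504 TPM in Hep_3D, a ratio of means of 11.7, against 3.72 with it. Clu, C3, Cfb and Cfi were the leading 4 genes in both Bil_2D libraries, at 95.9% and 97.3% of the sum.

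**Figure D2:**
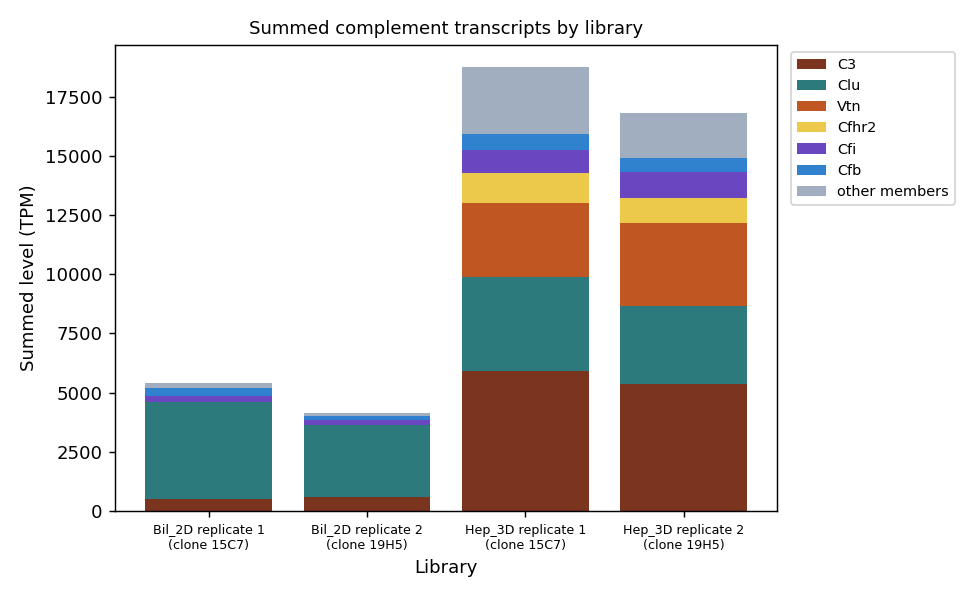
Summed TPM of the 35 complement genes in each library, stacked by gene, on an axis from 0. Clu makes up most of the bar in both Bil_2D libraries, while C3, Vtn and Cfhr2 fill a large part of both Hep_3D bars.

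In the classical pathway the proteases and C4b rose, and C1q was near 0 in every library. Of 9 genes 4 rose, 0 fell, 1 did not pass and 4 were under the filter. C4b encodes C4, whose cleavage product binds covalently to targets. It stood at 1.97 and 1.15 TPM in Bil_2D replicates 1 and 2 and at 487 and 190 TPM in Hep_3D replicates 1 and 2. The groups lay far apart, while the Hep_3D libraries differed between themselves by 2.56 times (limma log2 fold change 6.92, SE 0.51, adjusted p = 0.00446).

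C1s1, the C1 protease that cleaves C4 and C2, had 8.70 and 11.1 TPM in Bil_2D and 145 and 186 TPM in Hep_3D. Its rise was alike in both clones (log2 fold change 3.93, SE 0.20, adjusted p = 0.00312). C1ra, the protease that activates C1s, had 7.58 and 13.1 TPM in Bil_2D and 64.9 and 104 TPM in Hep_3D. The log2 fold change of C1ra was 2.92 (SE 0.36, adjusted p = 0.00702). C1rl, a C1r-like protease, had 3.78 and 7.16 TPM in Bil_2D and 18.9 and 28.7 TPM in Hep_3D. It rose by a log2 fold change of 1.96 (adjusted p = 0.0138), which missed the threshold without Bil_2D replicate 1 (0.0577) and without Hep_3D replicate 2 (0.0711). For each of these 3 proteases, clone 19H5 had the higher level in both states.

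C2, the protease subunit of the classical C3 convertase, had 22.0 and 11.3 TPM in Bil_2D and 27.2 and 25.3 TPM in Hep_3D. The groups did not overlap, but the log2 fold change of 0.69 did not pass (adjusted p = 0.14 in limma). On the size-factor scale it was 1.47 and passed (adjusted p = 0.0408), and on the TPM scale it passed without Bil_2D replicate 1 (0.0482). C4a, the close relative of C4b known as sex-limited protein, stayed at 0.0438 to 0.728 TPM in the 4 libraries. The C1q chains C1qa, C1qb and C1qc, which form the recognition molecule, lay at 0 to 0.295 TPM.

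Transcripts that mark macrophages, the usual source of C1q, were few. Of 17 macrophage and Kupffer cell markers 12 were under 1 TPM in every library, Marco was listed at 0 in all 4, and Adgre1, Clec4f and Timd4 were at 0.0752 TPM or less. The summed level of the list was 138 and 229 TPM in Bil_2D and 495 and 487 TPM in Hep_3D, of which Cd14 alone was 129 and 213, then 491 and 483. Cd14 is also a gene of hepatocytes. Cd68, a lysosomal protein abundant in macrophages, had 4.50 and 11.7 TPM in Bil_2D and 0.674 and 1.74 TPM in Hep_3D.

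The lectin pathway was the only group with a member that fell on the TPM scale: of 6 genes 2 rose, 1 fell, 1 did not pass and 2 were under the filter. Masp2, the protease that cleaves C4 and C2 in this pathway, had 0.681 and 0.452 TPM in Bil_2D and 111 and 30.8 TPM in Hep_3D (limma log2 fold change 5.26, SE 0.65, adjusted p = 0.00702). Mbl1, mannose-binding lectin A, had 0.244 and 0 TPM in Bil_2D and 26.4 and 17.9 TPM in Hep_3D (log2 fold change 4.35, adjusted p = 0.00383). Each Hep_3D library was far above each Bil_2D library for both genes. Both passed the filter only through Hep_3D, which already required a separation of the groups.

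Masp1, which encodes the protease MASP-1 and, from other transcripts of the same gene, MASP-3, went the other way. It had 63.4 and 37.5 TPM in Bil_2D and 6.77 and 14.7 TPM in Hep_3D, with no overlap between the groups. Its log2 fold change was -2.18 (SE 0.45, adjusted p = 0.0179 by limma) and -1.40 on the size-factor scale, where it did not pass (adjusted p = 0.0987). The call was also lost without Bil_2D replicate 1 (0.0855), Bil_2D replicate 2 (0.0542) and Hep_3D replicate 1 (0.0588). Because the table sums transcripts by gene, the share of MASP-1 and MASP-3 transcripts is not resolved.

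Mbl2, mannose-binding lectin C, differed widely between the clones as well as between the states. It had 43.6 TPM in Bil_2D replicate 1 but 0.181 TPM in Bil_2D replicate 2, and 171 and 61.9 TPM in Hep_3D. Hepatocyte markers differed between the Bil_2D libraries in the same direction, with Alb, albumin, at 140 and 18.4 TPM and Ttr, transthyretin, at 1165 and 125 TPM, and their part in the Mbl2 difference was not tested. In each clone the Hep_3D library was the higher one, by 1.94 in 15C7 and 5.73 in 19H5 on the log2(TPM + 1) scale. The log2 fold change of 3.84 (SE 1.86) did not pass without other terms (adjusted p = 0.139 in limma), and passed once clone entered the fit as a replicate block (0.0466) and without Bil_2D replicate 1 (0.0404). Colec11, a collectin, and Fcna, ficolin A, remained at or below 0.186 TPM in all 4 libraries.

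C3 was the most abundant complement transcript of Hep_3D and was already high in Bil_2D. Of the 4 alternative pathway genes 2 rose, 0 fell, 1 did not pass and 1 was under the filter. C3 stood at 533 and 602 TPM in Bil_2D and at 5924 and 5384 TPM in Hep_3D, which placed its group mean at rank 269 of the table in Bil_2D and at rank 26 in Hep_3D. The replicates differed little beside the gap between groups (limma log2 fold change 3.32, SE 0.16, adjusted p = 0.00281). Cfb, factor B, which supplies the protease of the alternative C3 convertase, had 308 and 176 TPM in Bil_2D and 646 and 582 TPM in Hep_3D. It rose by a log2 fold change of 1.39 (SE 0.30, adjusted p = 0.0204), a call lost when Hep_3D replicate 1 (0.094) or 2 (0.0833) was left out.

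Of the partners of factor B, 1 was not tested and 1 did not pass. Cfd, factor D, which cleaves factor B, was listed at 0 in all 4 libraries. Of 6 adipocyte markers, Adipoq and Lep were also listed at 0 throughout, Plin1 and Retn stayed under 1 TPM, Cidec had 1.05 to 3.74 TPM, and Fabp4 had 2.35 and 0.191 TPM in Bil_2D and 15.8 and 0.348 TPM in Hep_3D. Cfp, properdin, which stabilises the alternative convertase, had 4.57 and 3.74 TPM in Bil_2D and 3.11 and 2.35 TPM in Hep_3D. Its groups did not overlap, and its log2 fold change of -0.47 did not pass (adjusted p = 0.138 in limma) and was 0.16 on the size-factor scale.

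The terminal pathway had 4 genes that rose, 0 that fell, 1 that did not pass and 2 under the filter. Hc, complement C5, had 0.542 and 0.0142 TPM in Bil_2D and 97.5 and 99.6 TPM in Hep_3D (limma log2 fold change 6.31, SE 0.26, adjusted p = 0.00222). C9, which polymerises into the membrane pore, had 3.42 and 0.537 TPM in Bil_2D and 388 and 410 TPM in Hep_3D (log2 fold change 7.26, SE 0.54, adjusted p = 0.00446). The 2 Hep_3D libraries lay close together, with a ratio of replicate 1 to 2 of 0.979 for Hc and 0.945 for C9. C8g, the lipocalin chain of C8, had 6.24 and 5.49 TPM in Bil_2D and 45.6 and 56.4 TPM in Hep_3D (log2 fold change 2.92, adjusted p = 0.00364).

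The other terminal components were uneven. C6 and C8b, like Hc, passed the filter only through Hep_3D, which already required a separation of the groups. C6 had 0.0312 and 0.200 TPM in Bil_2D, and 109 TPM in Hep_3D replicate 1 against 10.4 TPM in replicate 2. Its log2 fold change was 4.99 (SE 1.13, adjusted p = 0.0228 by limma), and the call was lost without Bil_2D replicates 1 or 2 (adjusted p = 0.101 and 0.0907) and on the log2(TPM + 5) scale (0.0565). C8b, the C8 beta chain, had 0.122 and 0.0413 TPM in Bil_2D and 1.23 and 6.90 TPM in Hep_3D, and did not pass (log2 fold change 1.96, adjusted p = 0.061). It passed without Hep_3D replicate 1 (0.0291) and with a pseudocount of 0.1 (0.0282). C8a, the C8 alpha chain, reached 0.926 and 2.01 TPM in Hep_3D and 0.436 and 0.180 TPM in Bil_2D, just under the filter. C7 was listed at 0 in 3 libraries and at 0.0301 TPM in Hep_3D replicate 1. Within C8, the gamma chain was at 51.0 ± 7.63 TPM in Hep_3D (SD, n = 2), against 4.06 ± 4.01 for the beta and 1.47 ± 0.768 for the alpha chain.

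**Figure D3:**
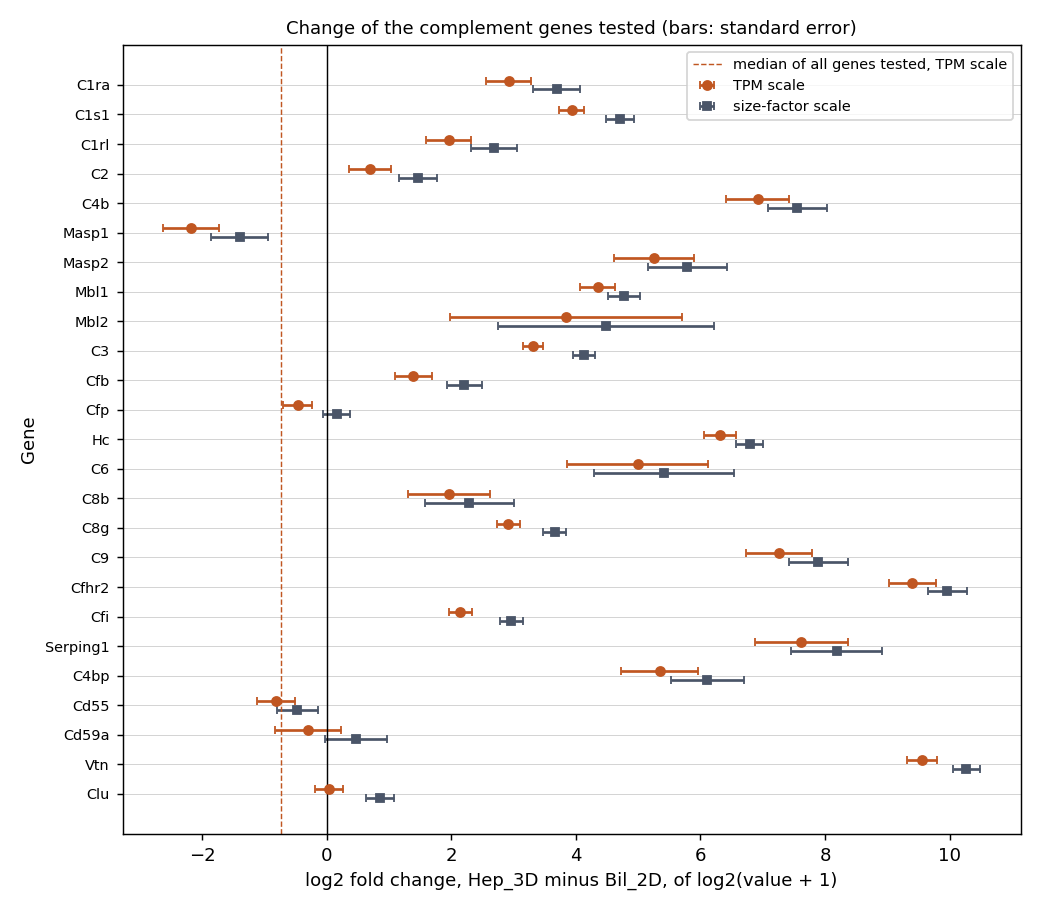
Log2 fold change with its standard error for the 25 complement genes tested, on the TPM scale (circles) and the size-factor scale (squares), with a dashed line at the median of all genes tested on the TPM scale, -0.73. Vtn and Cfhr2 lie farthest to the right at 9.55 and 9.40, and Masp1 lies farthest to the left at -2.18.

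Of the 6 soluble regulators 5 rose and 0 fell. Their summed level was 10457 and 9561 TPM in Hep_3D, and 6496 and 6279 TPM without Clu, against 6573 and 5969 TPM for the alternative pathway group. Vtn, vitronectin, which blocks insertion of the membrane attack complex and also binds integrins, rose from 4.39 and 2.57 TPM to 3115 and 3488 TPM (limma log2 fold change 9.55, SE 0.24, adjusted p = 0.00131). Cfhr2, a soluble plasma regulator, rose from 1.45 and 0.219 TPM to 1262 and 1084 TPM (log2 fold change 9.40, SE 0.37, adjusted p = 0.0021). Serping1, the C1 inhibitor, which inactivates C1r, C1s and the MASPs, had 1.08 and 0.471 TPM in Bil_2D and 712 and 165 TPM in Hep_3D (log2 fold change 7.62, SE 0.75, adjusted p = 0.00569). In all 3 genes the lowest Hep_3D value was far above the highest Bil_2D value, by a factor of 709 for Vtn, 748 for Cfhr2 and 152 for Serping1.

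C4bp, a cofactor for the breakdown of C4b protein, had 19.0 and 4.85 TPM in Bil_2D and 405 and 475 TPM in Hep_3D (limma log2 fold change 5.34, SE 0.62, adjusted p = 0.00653). Cfi, factor I, the protease that cleaves C3b and C4b, was already at 270 and 200.5 TPM in Bil_2D and reached 1002 and 1068 TPM in Hep_3D (log2 fold change 2.15, SE 0.19, adjusted p = 0.00523). Clu, a chaperone of plasma and epithelia that also binds terminal complexes, did not separate the states. It had 4070 and 3051 TPM in Bil_2D and 3961 and 3281 TPM in Hep_3D (log2 fold change 0.033, SE 0.23, adjusted p = 0.91). On the size-factor scale the log2 fold change of Clu was 0.85 and did not pass (adjusted p = 0.0641), but it passed there with the replicate block (0.0493).

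None of the 3 membrane regulators rose, and none fell without the replicate block. Cd59a, which blocks the membrane pore on the cell itself, had 26.5 and 11.9 TPM in Bil_2D and 20.6 and 9.79 TPM in Hep_3D, so the groups overlapped and clone 15C7 was the higher in both states (adjusted p = 0.642 in limma). Cd55, decay accelerating factor, was low, at 1.73 and 1.20 TPM in Bil_2D and 0.687 and 0.145 TPM in Hep_3D. Its log2 fold change of -0.82 did not pass (adjusted p = 0.0791) but did so under the replicate block (0.0389). On the size-factor scale it was -0.47 (adjusted p = 0.347). Cd46, which in mouse is known mainly from testis, lay at 0.123 to 0.286 TPM.

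Both clones moved in the same direction for 24 of the 25 genes tested, 20 upward and 4 downward, and the exception was Clu. Across all genes tested 1643 were higher in Hep_3D in both clones and 9566 lower. Size differed between clones for several genes. The log2 difference of C6 was 6.74 in clone 15C7 and 3.25 in 19H5, and that of Serping1 8.42 and 6.82. C4bp showed the reverse order, with 4.34 in 15C7 and 6.35 in 19H5, as did C9 with 6.46 and 8.06. With 1 library per clone and state, these differences between clones have no test.

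**Figure D4:**
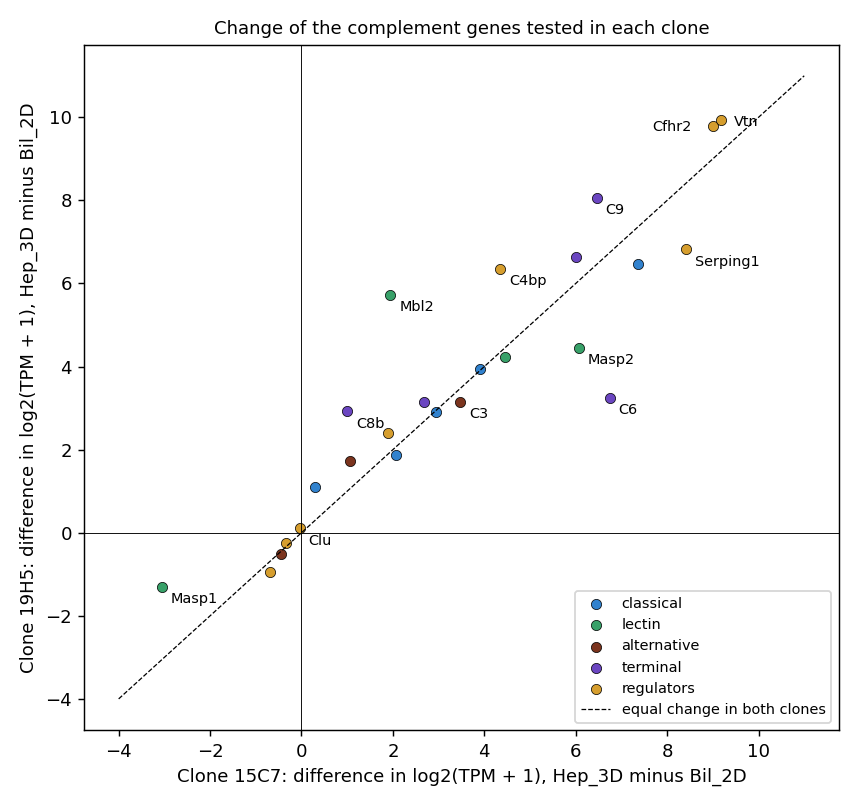
Difference in log2(TPM + 1), Hep_3D minus Bil_2D, in clone 15C7 (x axis) and clone 19H5 (y axis) for the 25 complement genes tested, coloured by pathway group, with a dashed line of equal change. C6 lies at 6.74 and 3.25, below the line, and Mbl2 at 1.94 and 5.73, above it.

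Within Hep_3D, 9 of the 25 genes tested (36%) differed more than 2-fold between the clones, against 13.1% of all genes tested. In 7 of these 9 the higher library was replicate 1 (clone 15C7), as it was for 67.7% of all genes tested that differed this much. The 7 were C4b, Masp2, Mbl2, C6, Serping1, Cd59a and Cd55, the last of these under 1 TPM, and the other 2, higher in replicate 2, were Masp1 and C8b. The fibroblast and stellate marker Dcn also set these libraries apart, with 178 TPM in Hep_3D replicate 1 and 2.79 TPM in replicate 2, while 11 of the 14 markers of that list were under 1 TPM in every library. The summed level of the list was 183 TPM in Hep_3D replicate 1, 4.17 TPM in Hep_3D replicate 2, and 6.36 and 1.48 TPM in Bil_2D replicates 1 and 2. Of the 14 markers 9 were higher in Hep_3D replicate 1 than in replicate 2, as were 7083 of the 12336 genes tested. In Bil_2D, too, 9 of the 14 were higher in replicate 1. Of the 9 in Hep_3D, Rgs5 had 2.70 and 0.429 TPM and Col1a1 had 1.17 and 0.50 TPM. The collagen genes Col1a2 and Col3a1 and the matrix gene Lum were at 0.162 TPM or less throughout. The part of such cells in the clone difference was not tested.

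Several complement genes are neighbours in the genome, and neighbours often had unlike levels. Coordinates are from GENCODE M21 on GRCm38 (mm10), the build the submitters' processing notes name. On chromosome 17 C4b (34728380 to 34743882), C4a (34809092 to 34823464), Cfb (34856374 to 34862518) and C2 (34862604 to 34898265) follow each other, with Hep_3D means of 339, 0.451, 614 and 26.2 TPM. On chromosome 15 C6 (4727175 to 4814967) and C9 (6445327 to 6498751) rose, while C7 (4988762 to 5063740), which lies between them, was at 0.0301 TPM or less. On chromosome 6 C1rl (124493113 to 124510643), C1ra (124512405 to 124523443) and C1s1 (124530345 to 124542359) all rose. On chromosome 1 C4bp (130634773 to 130661632) rose, and its neighbour Cd55 (130439027 to 130462744) did not pass.

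Some of these genes share sequence with others, which limits how reads could be assigned to them. Of the distinct 31-base words in its GENCODE M21 transcripts, C4b shared 48.3% with C4a, and C1ra shared 56.9% with C1rb. For C1s1 the share in common with C1s2 was 33.5%, and for Cfhr2 the share in common with any other gene was 42.6%. C1rb and C1s2 were at 0.10 TPM or less in each library. Cfb and C2 shared 75.5% and 40.2% of their words with Gm20547, an annotated gene spanning both loci that has no value in the table. The values of these genes are uncertain, while Vtn, C3, Hc, C8g, Cfi, Serping1, Mbl1, Mbl2, Masp2 and Clu shared no such word with another gene. Words were compared only in the direction of each transcript, so sequence shared with transcripts of the opposite strand was not examined. Masp2, C8g, Masp1 and C2 overlap genes on the opposite strand (Tardbp, Fbxw5, Rtp4 and Zbtb12), and whether strand was used in counting is not given in the sources used here. On the TPM scale all 4 overlapping genes were lower in each Hep_3D library than in each Bil_2D library. The same held for 71.9% of all genes tested. Tardbp, for example, had 50.6 and 48.8 TPM in Bil_2D and 19.2 and 17.2 TPM in Hep_3D. The part of reads from the opposite strand in the values of Masp2, C8g, Masp1 and C2 was not tested.

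Some other plasma proteins of the complement system were also higher in Hep_3D. Of 16 further soluble components and regulators, 15 were in the table and 6 were tested, of which 4 rose and 1 fell on either scale. Across all genes tested, 6.8% rose and 51.9% fell, and on the size-factor scale 11.9% were higher and 9.54% lower. The pentraxins Apcs and Crp, which can bind C1q, rose by 6.13 and 5.99 on the log2 scale, and Cpn2, the regulatory subunit of the carboxypeptidase that inactivates anaphylatoxins, by 5.52. Cpn1, the catalytic subunit of that enzyme, had 29.6 and 25.4 TPM in Bil_2D and 264 and 268 TPM in Hep_3D (limma log2 fold change 3.23, adjusted p = 0.00222). Thbd, thrombomodulin, a membrane cofactor that also aids factor I, fell from 67.9 and 63.1 TPM to 2.34 and 2.80 TPM (log2 fold change -4.22, adjusted p = 0.00207).

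Receptors for complement fragments were hardly present. Of 11 genes on that list 9 were under 1 TPM in every library, including C3ar1, the C3a receptor, at 0.0166 to 0.329 TPM and C5ar1, a C5a receptor, at 0 to 0.0331 TPM. Cr1l, known as Crry, the broadly expressed membrane regulator of mouse cells, had 53.6 and 51.6 TPM in Bil_2D and 41.5 and 48.4 TPM in Hep_3D. Its log2 fold change of -0.23 did not pass (adjusted p = 0.225 in limma). On the size-factor scale the sign of Cr1l turned, at 0.57, and it did not pass there (adjusted p = 0.0643). C1qbp, a mostly mitochondrial protein that can bind C1q, fell from 271 and 276 TPM to 73.7 and 89.5 TPM (log2 fold change -1.74, adjusted p = 0.00513, and -0.93 on the size-factor scale, adjusted p = 0.0304).

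Genes of the signalling known to induce complement genes in liver moved in both directions: of 19 tested, 6 rose and 8 fell, and by the size-factor scale 8 were higher and 2 lower. Of all genes tested 6.8% rose and 51.9% fell, and 11.9% were higher and 9.54% lower by the size-factor scale, so the counts that fell are near those of all genes. Counts also depended on single libraries, with 3 that rose without Hep_3D replicate 1, and 4 that fell without Bil_2D replicate 1, without Hep_3D replicate 1 or without Hep_3D replicate 2. Il6ra, the interleukin-6 receptor, rose from 2.68 and 3.03 TPM to 15.7 and 23.4 TPM (log2 fold change 2.39, adjusted p = 0.00598 in limma). Cebpa, Il1r1 and Socs3, a feedback inhibitor of STAT3 signalling, rose by 3.99, 2.35 and 1.76, although Socs3 had an adjusted p of 0.0514 without Hep_3D replicate 1. Stat3 itself had 60.8 and 60.3 TPM in Bil_2D and 87.5 and 75.8 TPM in Hep_3D, did not pass on the TPM scale (log2 fold change 0.42, adjusted p = 0.0542), and passed on the size-factor scale (1.23, adjusted p = 0.0112) and with the replicate block (0.0477).

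The NF-kappa B genes Nfkb1 and Nfkbia fell by 1.98 and 2.06 on the log2 scale, and passed on the size-factor scale too, at -1.19 and -1.25, where both calls were lost whichever library was left out (adjusted p = 0.0545 to 0.119 for Nfkb1 and 0.0535 to 0.23 for Nfkbia). Rela, a subunit of NF-kappa B, fell by 0.80 on the log2 scale (adjusted p = 0.0433) but not on the size-factor scale (-0.0016, adjusted p = 0.997), and not with any 1 library left out (0.0649 to 0.158). Ifngr1, a chain of the interferon gamma receptor, and Irf1, an interferon-induced factor, fell by 2.06 and 1.32 on the log2 scale, but on the size-factor scale neither passed (-1.25 and -0.53, adjusted p = 0.17 and 0.106 in limma). Without Hep_3D replicates 1 and 2 the adjusted p of Ifngr1 was 0.121 and 0.102. Cebpb fell with a log2 fold change of -0.96, which was -0.14 on the size-factor scale (adjusted p = 0.51), and the call was lost when Bil_2D replicate 1 was left out (0.0545).

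**Figure D5:**
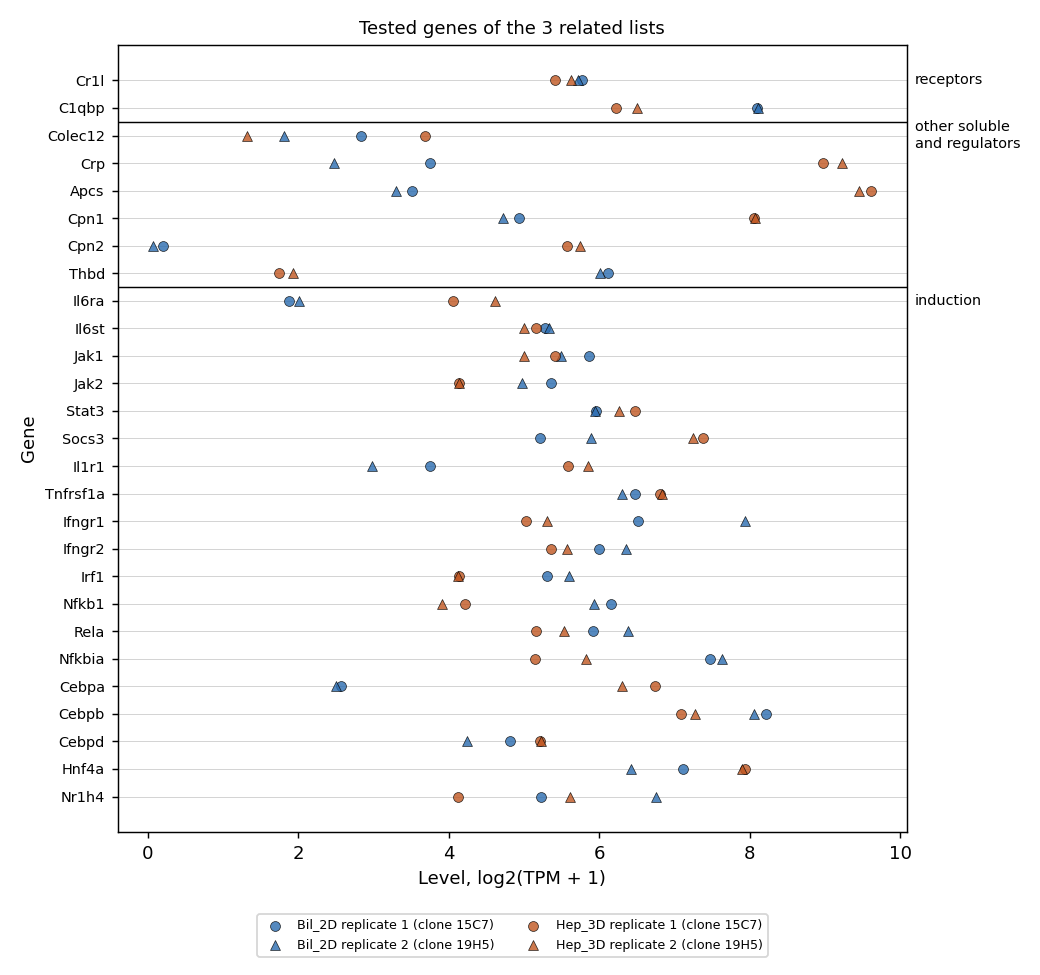
Level, as log2(TPM + 1), of the tested genes of the 3 related lists, 1 point per library, with colours and shapes by group and clone. Crp and Apcs lie far to the right in Hep_3D, while the 4 points of Cr1l, at 41.5 to 53.6 TPM, lie together.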

How the data were processed

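Gene expression was measured by RNA sequencing in 4 libraries, 2 of Bil_2D and 2 of Hep_3D, grouped by the sample titles. The authors deposited a table of TPM for 24493 gene symbols, named as such in the table and summing to 1000000 per library. Salmon, DESeq2 and the mm10 build are listed, without versions or roles, per the submitters' processing notes, and the transcript annotation is not given in the sources used here. TPM keeps no depth, so no counting error can be given, and a few very abundant genes lower the share of all others.

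The 12336 genes that reached 1 TPM in 2 or more libraries entered a fit of log2(TPM + 1) with limma 3.58.1 in R 4.3.3 (lmFit, eBayes with a trend), Hep_3D against Bil_2D without other terms. Residual degrees of freedom were 2 and prior ones 2.29, and Benjamini-Hochberg adjustment covered every gene tested. The fit was tested on simulated data, where 77.5% of 200 genes changed by 3 log2 units among 12336 were recovered. Of the genes left unchanged, 8 were called. The changed genes were among the more abundant and moved equally up and down, and the 4 libraries were drawn independently. These data have many more calls, a shifted median and paired clones, so that share need not hold for them. With 2 libraries per group, the smallest p of a two-sided exact permutation test is 0.333. The labels name the clones and say nothing more on independence, so the p-values reflect only the spread between these libraries, which may be technical. The pairing comes from the clone numbers: across genes, the 2 libraries of a clone deviated together from their groups' means, at a correlation of 0.414. The size-factor scale divides TPM by median-of-ratios size factors from the 10434 genes that reached 1 TPM in all 4 libraries.

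Alternatives were other scalings (median-of-ratios, quantile, or leaving out the 50 most abundant genes), pseudocounts of 0.1 and 5, no filter or 5 TPM, eBayes with the robust option or with no trend, a replicate block by clone, and leaving out each library. The members and lists were chosen with earlier results of these data known. All 35 members are described. Of the related lists, the called genes of largest absolute change, up to 4 per list and direction, are named, together with C3ar1, C5ar1, Il6ra, Stat3 and Cebpb. Some genes of the related lists and 1 promoter motif are not reported here and were left out of the list counts. Other genes named, such as Cr1l, Cd68, Cd14, Dcn, Rela, Tardbp, the other strand partners and single markers of the cell type lists, were chosen after their values were seen. Of the marker lists not described in the results, the summed level in the 4 libraries was 3.98 to 31.7 TPM for neutrophils, 1.60 to 17.0 TPM for adipocytes and 1.45 to 4.15 TPM for endothelium, and of 4 mesothelial markers 3 were under 1 TPM in every library, while the other, Msln, had 324 and 828 TPM in Bil_2D and 2.76 and 9.92 TPM in Hep_3D. Protein sequences were not used here.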

Additional observations from a re-analysis of the deposited data

Results flagged for a closer look

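In Clu and Colec12 the 2 clones moved in opposite directions between the states. For Clu the difference in log2(TPM + 1), Hep_3D minus Bil_2D, was -0.039 in clone 15C7 and 0.11 in clone 19H5. Colec12, a scavenger receptor collectin, had 6.13 and 2.49 TPM in Bil_2D and 11.8 and 1.48 TPM in Hep_3D, a difference of 0.85 in clone 15C7 and -0.49 in clone 19H5. With 1 library per clone and state, the difference between clones was not tested.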

How the results depend on the processing

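Of the 17 complement genes that rose, 16 kept the call under all 11 alternatives that used every library, C6 being the exception on the log2(TPM + 5) scale, and C3, which is among the 50 most abundant genes, has no value where those are left out. With single libraries left out, 14 kept it in all 4 fits, and 8 (C1s1, C3, Hc, C8g, C9, Cfhr2, Cfi and Vtn) also kept it in all 4 on the size-factor scale. The number that rose was 15 to 17 with libraries left out and 9 to 15 on the size-factor scale (9 without Bil_2D replicate 2). The number that fell was 0 with size factors, quantile normalization or the 50 most abundant genes left out, 2 with the replicate block, 0 with both size factors and the block, and 0 to 1 with libraries left out (0 on the size-factor scale).

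Over the whole table, the count for all genes called, Hep_3D against Bil_2D, was 7241, against 2642 with size factors, 3100 with quantile normalization, 3350 with the 50 most abundant genes left out and 3193 with size factors and the replicate block. It was 2627 to 4537 with libraries left out and 188 to 818 on the size-factor scale (340 and 188 leaving out Bil_2D replicate 1 or 2, 818 and 613 leaving out Hep_3D replicate 1 or 2). The log2 ratio of the summed level of the 35 genes was 1.90, against 2.72 with size factors, 1.66 with quantile normalization, where it covers the 25 genes tested, and 4.27 with the 50 most abundant genes left out, where Clu and C3 leave the sum. On the TPM scale the replicate block added Mbl2 to the genes that rose and Cd55 to those that fell, and changed no other call among the 35. On the size-factor scale it added Clu and no other gene, and Mbl2 did not pass (adjusted p = 0.0535).

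Among the related genes the log2 fold change of Ifngr2 turned from -0.71 to 0.092 with size factors, with or without the replicate block, and on that scale was 0.31 without Bil_2D replicate 2 and, without Hep_3D replicate 1, 0.23. On that scale Rela stood at 0.26 without Bil_2D replicate 2 and, without Hep_3D replicate 1, at 0.22. The cause was not tested. Sequencing depth is unknown, so values under 1 TPM cannot be told from 0.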
